A study of Mus musculus with 2 samples.

Results

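Wfdc18, Wfdc12, Wfdc2 and Slpi were followed as genes of the WAP four-disulfide core (WFDC) family, with Wap itself left out. They were chosen by name among the 27179 features of the count tables, and all 4 were present. The tables come from single-cell RNA sequencing of mouse mammary cells at 18.5 days of pregnancy, made to compare glands with and without a deletion of Ehf, an ETS transcription factor of epithelial cells. There was 1 library of Ehf knockout cells (strain EhfKO, group Ehf_KO) and 1 of wild type cells (WT). Each held the pooled thoracic and inguinal glands of 2 adult females, sorted as live and negative for Ter119, CD31 and CD45, so that blood and vessel cells were meant to be depleted in both. Which part of Ehf is deleted, and in which cells, could not be read from the labels. With 1 pooled library per genotype no test was possible. Every interval below is an exact 95% interval that covers counting error only, and a difference between the libraries cannot be told apart from a difference between the animals or the cell preparations.

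WFDC proteins are small secreted proteins built around a cysteine-rich core held by disulfide bonds, and many of them block serine proteases or act against bacteria. Wap is the whey acidic protein of mouse milk and gave the family its name. Slpi is the secretory leukocyte protease inhibitor, which blocks neutrophil elastase and cathepsin G. Wfdc2, also called HE4, is secreted by many ductal and glandular epithelia. Wfdc18, also called Expi or extracellular proteinase inhibitor, is known from the mammary gland, and Wfdc12 is a small protein of the same fold. In the mammary epithelium, luminal secretory cells (luminal progenitors and milk-making alveolar cells), hormone-sensing luminal cells (which carry the estrogen and progesterone receptors) and contractile basal cells form separate lineages.

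On GRCm38, Wfdc12 (GENCODE gene chr2:164189231-164190608, minus strand, 3 exons), Slpi (chr2:164354070-164389095, minus strand, 3 to 4 exons in 3 transcripts) and Wfdc2 (chr2:164562413-164568510, plus strand, 3 to 5 exons in 5 transcripts) lie within 379 kb on chromosome 2. That stretch holds 19 protein-coding genes. Wfdc18 (chr11:83709015-83711348, plus strand, 2 to 4 exons in 3 transcripts) lies on chromosome 11, between Wfdc17, which ends 2746 bases before it, and Wfdc21. The antisense RNA gene A730032A03Rik runs on the other strand over the whole of Wfdc12 and overlaps 1 of its exons. It is no row of the tables, and the strand setting of the counting is unknown here, so reads of the pair cannot be told apart. None of the 31-base stretches in the last 500 bases of Wfdc18, Wfdc2 and Slpi transcripts, where 3' tags fall, occurs in another gene's transcripts. For Wfdc12, 7 of 470 such stretches (1.49%) do. Wfdc18 thus shares no such stretch with its neighbours Wfdc17 and Wfdc21.

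The genomic stretches before the 4 starts are shown because Ehf is an ETS factor and because the levels of these genes differ so much between lineages. They come from RefSeq (GRCm38.p6), read 5′ to 3′ on the gene's strand. Each is the part of the 250 bases before the RefSeq start that lies outside the gene's own GENCODE exons: chr11:83708754-83709003 for Wfdc18, chr2:164190609-164190808 for Wfdc12, chr2:164562475-164562578 for Wfdc2 and chr2:164356508-164356757 for Slpi. Capitals mark the ETS letters AGGAAG on either strand (read as CTTCCT on the other).
Wfdc18: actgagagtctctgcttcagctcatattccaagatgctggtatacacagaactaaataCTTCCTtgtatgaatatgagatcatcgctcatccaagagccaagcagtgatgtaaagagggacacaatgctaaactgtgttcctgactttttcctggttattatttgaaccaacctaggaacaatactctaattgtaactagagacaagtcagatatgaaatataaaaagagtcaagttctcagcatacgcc
Wfdc12: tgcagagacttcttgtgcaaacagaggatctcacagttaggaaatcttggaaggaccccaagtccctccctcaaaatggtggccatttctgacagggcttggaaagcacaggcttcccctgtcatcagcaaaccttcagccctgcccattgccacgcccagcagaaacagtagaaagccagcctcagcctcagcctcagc
Wfdc2: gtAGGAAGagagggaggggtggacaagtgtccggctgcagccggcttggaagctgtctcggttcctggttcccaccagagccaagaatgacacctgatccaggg
Slpi: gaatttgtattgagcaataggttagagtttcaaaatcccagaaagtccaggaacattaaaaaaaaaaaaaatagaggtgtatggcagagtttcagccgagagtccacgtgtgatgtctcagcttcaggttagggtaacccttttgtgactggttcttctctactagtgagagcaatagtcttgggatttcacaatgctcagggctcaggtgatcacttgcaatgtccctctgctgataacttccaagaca
Over the full 250 bases, Wfdc18 held 1 match and Wfdc2 held 2, the second in an exon and not shown, while Wfdc12 and Slpi held 0. Of 27025 promoters of the same length, 29.2% held at least 1. The STAT letters TTCNNNGAA, which read the same on both strands, occurred in 0 of the 4 and in 7.18% of all promoters. A match is a description of letters and not a binding site, and no match says only that these letters are not in this window.

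After filtering, 6523 knockout and 9089 wild type cells remained, with medians of 3894 and 2481 UMIs (unique molecular identifiers, each standing for 1 captured transcript). Of the barcodes, 25 occurred in both libraries, 15 of them among the kept cells. Clusters were built on variable genes that included no WFDC or milk protein gene. Each cell was first scaled to all its UMIs, those genes included, so the clusters were not wholly independent of them. Among 18 clusters, 3 were luminal secretory (812 knockout and 2561 wild type cells), 1 hormone-sensing (145 and 125) and 10 basal (5193 and 6081). Cluster 9 (312 and 143 cells) met no name; it was led by Lgr5, Ltbp2 and Gfra2 with Krt17. Another 61 and 179 cells were non-epithelial. The luminal secretory class was made up differently in the libraries: alveolar-like cluster 4 held 58 knockout and 1814 wild type cells, progenitor-like cluster 5 held 490 and 370, and cluster 8, led by cell cycle genes, held 264 and 377. The hormone-sensing cluster held its defining genes, with Prlr at 1408 and 1495, Pgr at 162 and 203 and Foxa1 at 120 and 79.8 CPM (UMIs per 1000000 UMIs) in knockout and wild type cells. Ehf itself was at 80.5 CPM in knockout and 115 in wild type luminal secretory cells, on 1062 and 3342 UMIs. Since 3' tags outside the deleted part check nothing, its presence does not test the label.

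Levels are given as CPM of all UMIs of the class, and since each UMI counts 1 transcript end they need no division by gene length. The 4 genes fell into different lineages. Wfdc18 was a luminal secretory gene, Wfdc12 a hormone-sensing gene, and Slpi and Wfdc2 were highest in hormone-sensing cells and second in cluster 9. Each gene had the same top class in both libraries. The steps below the top were less clear: for Wfdc2 the intervals of luminal secretory and basal cells overlapped in each library, and for Wfdc12 those of cluster 9 and luminal secretory cells overlapped in the wild type.

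**Figure D1:**
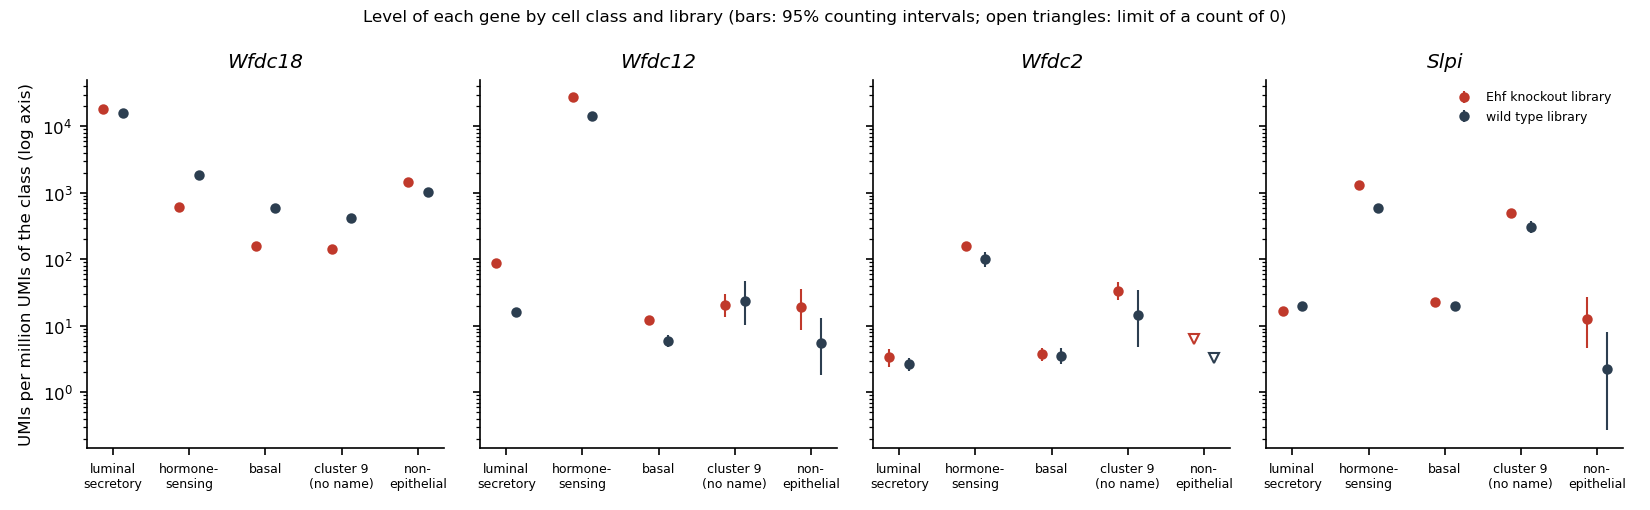
Level of each gene (vertical log axis, UMIs per 1000000) in 5 cell classes, with knockout in red and wild type in dark blue; bars are 95% counting intervals and open triangles the limit that a count of 0 allows. Wfdc18 peaks in luminal secretory cells at 18284 and 16156 CPM, and the other 3 genes peak in hormone-sensing cells, led by Wfdc12 at 27968 and 14586 CPM.

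Wfdc18 was among the most abundant transcripts of luminal secretory cells in both libraries. It had 241238 UMIs or 18284 CPM (18211 to 18357) in the knockout against 471242 UMIs or 16156 CPM (16110 to 16202) in the wild type. It ranked as gene number 4 by level in knockout and number 7 in wild type luminal secretory cells. The median cell held 15993 CPM in the knockout against 14524 in the wild type. After each cell was thinned to 2000 UMIs, 100% of 782 knockout and 99.8% of 2455 wild type cells held at least 1 Wfdc18 UMI.

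Whether Wfdc18 was higher or lower in the knockout depended on the scale. In luminal secretory cells milk protein and WFDC genes took 10.4% of the UMIs in the knockout against 38.9% in the wild type, and the median gene with at least 50 UMIs was higher in the knockout by 0.86 on the log2 scale. As a plain share of UMIs, Wfdc18 had a log2 ratio of knockout over wild type of 0.18 (0.17 to 0.19). With the median gene set to 0, the scale used for ratios from here on, it was -0.68 (-0.68 to -0.67). Wap, measured in the same cells, was at 2059 CPM in the knockout against 26578 in the wild type, a log2 ratio of -4.55 (-4.56 to -4.53). The direction for Wap was the same on the plain scale, at -3.69. There were 8.88 Wfdc18 UMIs for each Wap UMI in knockout luminal secretory cells (8.77 to 8.99) and 0.608 in wild type cells (0.606 to 0.610).

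Among luminal secretory cells with a like milk protein share, Wfdc18 was about level or higher in the knockout. The share was computed without any WFDC gene except Wap. Each bin was scaled to its own median gene. From the lowest bin up, that gene was higher in the knockout by 0.07, 0.04, 0.12 and 0.25, against 0.86 in the class. Below 5% milk protein, the Wfdc18 level was 15789 CPM in 442 knockout cells and 15221 in 102 wild type cells, a log2 ratio of -0.02 (-0.05 to 0.02). From 5 to 15% it was 16452 CPM in 249 cells and 13757 in 157 cells, a log2 ratio of 0.22 (0.19 to 0.24). From 15 to 35% it was 28072 CPM in 104 cells and 14849 in 879 cells, a log2 ratio of 0.80 (0.79 to 0.81). As a share of all UMIs the wild type level stayed between 13757 and 16880 CPM over the 4 bins. Over UMIs outside milk protein and WFDC genes it was higher in the upper bins in both libraries: 15788, 15550, 20960 and 30975 CPM in the wild type and 16378, 18420, 36931 and 52221 CPM in the knockout. The top bin, above 35%, held only 17 knockout cells, at 30294 CPM against 16880 in 1423 wild type cells (log2 ratio 0.60). Wap behaved otherwise in these bins: it was at 30.4 against 545 CPM below 5%, 258 against 904 from 5 to 15% and 6218 against 9906 from 15 to 35%, lower in the knockout in each. Basal cells, for comparison, had Wap at 25.6 CPM in the knockout against 1322 in the wild type. The wild type levels below 5% and from 5 to 15% were thus under the wild type basal level. The knockout level below 5% was near the knockout basal level. The part of free RNA in these bins was not tested. In the top bin the Wap ratio was 0.01 (-0.01 to 0.04).

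**Figure D2:**
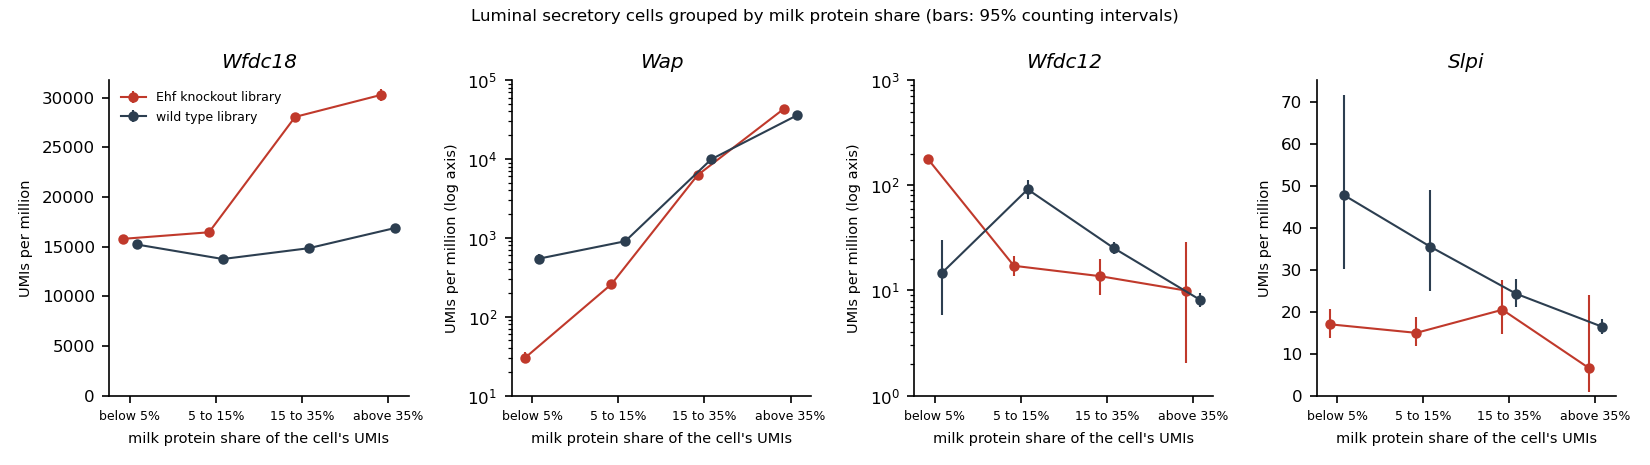
Wfdc18, Wap, Wfdc12 and Slpi (vertical axes, UMIs per 1000000, log axes for Wap and Wfdc12) in luminal secretory cells grouped by milk protein share, knockout in red, wild type in dark blue, with 95% counting intervals. As a share of all UMIs, milk included, Wfdc18 lies between 13757 and 16880 CPM in wild type bins and at 28072 and 30294 CPM in the upper knockout bins, of which the last holds 17 cells; over UMIs outside milk and WFDC genes the wild type level is 30975 CPM in the top bin.

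Within single clusters the Wfdc18 ratio again varied. In alveolar-like cluster 4 the level was 32783 CPM in 58 knockout cells and 16951 in 1814 wild type cells, a log2 ratio of 0.59 (0.57 to 0.61). There 6 knockout cells held 38.8% of the UMIs, and the median cell was at 17234 against 15188 CPM with a lower quartile of 5510 against 9769, so that the summed level was not that of a typical cell. In progenitor-like cluster 5 it was 19301 and 16505 CPM, a ratio of 0.06 (0.05 to 0.08). In cycling cluster 8 it was 16167 and 13713 CPM, a ratio of -0.47 (-0.48 to -0.46). The class ratio of -0.68 thus lay below each of its 3 clusters, which hold different shares of the class in the libraries. Each cluster was also scaled to its own median gene. That gene was higher in the knockout by 0.36, 0.16 and 0.71 in clusters 4, 5 and 8, against 0.86 in the class. The zero of the scale therefore differs between the clusters and the class. Without cluster 4 the class ratio was -0.24. At 1.5-fold, the summed level of Wfdc18 was called higher in cluster 4, as were 14.8% of the genes there (21.1% were lower), and was within 1.5-fold in clusters 5 and 8. Those clusters had Wfdc12 higher, against 8.42% of genes in cluster 5 and 12.7% in cluster 8, and Slpi lower, against 8.43% and 15.1%. In cluster 5 Wfdc2 was lower as well, on 21 and 31 UMIs. Slpi in cluster 8 was at 14.6 CPM on 99 UMIs in each library, so there it was lower only with the median gene set to 0.

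Outside the luminal secretory class, Wfdc18 was lower in the knockout in hormone-sensing cells, basal cells and cluster 9. Basal cells had 159 CPM in the knockout (3648 UMIs) against 599 in the wild type (8678 UMIs), a log2 ratio of -1.90 (-1.96 to -1.85). The basal class too was made up differently: cluster 0 held 2416 knockout and 159 wild type cells, cluster 1 held 129 and 2069 and cluster 2 held 88 and 2017. Wfdc18 was lower in the knockout in 7 of the 9 basal clusters with a ratio, and not in cluster 2 (1010 against 678 CPM, with 87.3% of the knockout UMIs in 9 cells) or cluster 6 (511 against 457 CPM). Cluster 9 had 142 and 413 CPM, a ratio of -1.55 (-1.88 to -1.22). These levels were 0.869% of the luminal secretory level in knockout basal cells and 3.71% in wild type ones. At 2000 UMIs per cell, a Wfdc18 UMI was held by 24.5% of basal cells in the knockout against 51.9% in the wild type (unthinned 41.3% and 54.9%, median depths 3704 and 2046 UMIs). Basal cells held 6.21 Wfdc18 UMIs per Wap UMI in the knockout against 0.453 in the wild type, beside 8.88 and 0.608 in luminal secretory cells of the same libraries. Summed alveolar markers in basal cells were at 1081 CPM against 14613, with 11 of 11 lower in the knockout and 0 at 0. Free RNA from luminal cells can give such UMIs, and its part in the basal levels was not tested.

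In hormone-sensing cells Wfdc18 sat in few cells. It was at 612 CPM in the knockout against 1870 in the wild type, a log2 ratio of -1.62 (-1.75 to -1.48). The 5 knockout cells with at least 10 UMIs held 82.8% of its UMIs and the 10 such wild type cells held 90.4%. Their median doublet scores were 0.211 and 0.213, against 0.031 and 0.028 for the class. With 15 knockout and 14 wild type cells of a doublet score above 0.1 left out, the ratio was -2.88. The share of cells with a UMI at 2000 UMIs, 24.5% and 40.2%, was at or below that of basal cells. The non-epithelial level, 1443 and 1023 CPM, rested on few cells too: 7 of 61 knockout cells held 95.2% of it.

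Of the 4 genes, Wfdc12 had the widest gap between its top class, hormone-sensing cells, and the next. It had 31602 UMIs or 27968 CPM (27660 to 28278) in 145 knockout cells and 9134 UMIs or 14586 CPM (14288 to 14888) in 125 wild type cells. That was number 2 by level among all genes of these cells in the knockout against number 4 in the wild type. The log2 ratio was 0.93 (0.90 to 0.97), and on the plain scale 0.94, since the median gene of this class moved by only 0.005. The next class was 323-fold lower in the knockout, luminal secretory cells with most of their UMIs in 7 cells, and 617.6-fold lower in the wild type, cluster 9.

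The higher Wfdc12 level in the knockout was spread over the cells of the class. Single cells ranged from 267 to 86158 CPM with a median of 25632 in the knockout, and from 0 to 60445 with a median of 11410 in the wild type. Of the 145 knockout cells 79.3% lay above the wild type median, and of the 125 wild type cells 20% lay above the knockout median, so the ranges overlapped widely. Nearly all cells held the gene: 99.3% of knockout and 97.5% of wild type cells at 2000 UMIs, against 2.27% and 0.871% of basal cells. Hormone-sensing cells were deeper in the knockout, with a median of 7745 UMIs against 4403, and after thinning the summed ratio was 0.75. Summed alveolar marker levels in these cells were 1015 CPM in the knockout against 27692 in the wild type, with 0 of 11 markers at 0 in either library. Summed basal markers were at 540 and 1277 CPM. Their part in the Wfdc12 difference was not tested. The hormone-sensing markers themselves summed to 9588 and 5508 CPM, with 5 of 13 at least 1.5-fold higher in the knockout and 1 lower, against 9.42% and 8.33% of all genes of the class. Of these sums Calca took 4380 and 1308 CPM, Areg 1031 and 331 and Prlr 1408 and 1495.

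**Figure D3:**
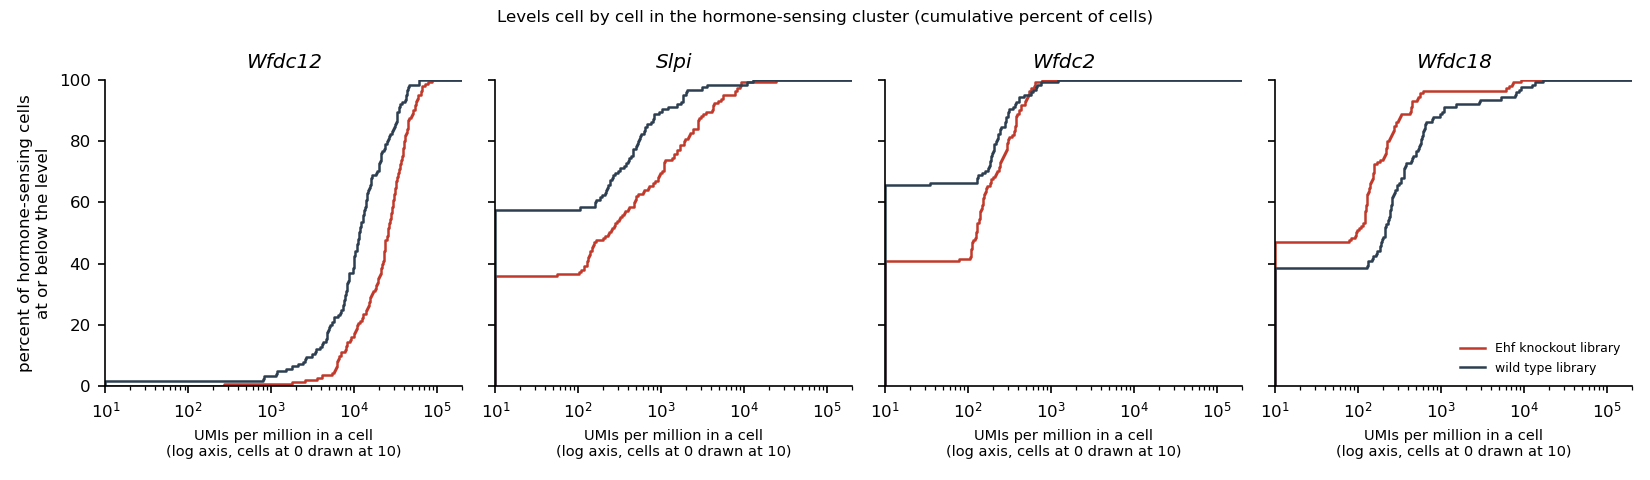
Cumulative percent of hormone-sensing cells (vertical axis) at or below a level (horizontal log axis, UMIs per 1000000 in the cell, cells at 0 drawn at 10), 145 knockout cells in red and 125 wild type cells in dark blue. The Wfdc12 curve of the knockout lies to the right, with medians of 25632 and 11410 CPM, and the Slpi and Wfdc2 curves start at fewer cells without a UMI in the knockout.

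In luminal secretory cells Wfdc12 was a minor transcript, with many of its UMIs in a few cells. It had 1143 UMIs or 86.6 CPM in the knockout against 471 UMIs or 16.1 CPM in the wild type, a log2 ratio of 1.57 (1.41 to 1.73). The 7 knockout cells with at least 50 UMIs, 0.862% of the class, held 61.9% of the UMIs, and 3 such wild type cells held 43.5%. Hormone-sensing markers summed to 881 and 973 CPM in those cells, against 137 and 110 in the class as a whole, and the median doublet scores were 0.133 and 0.086 against 0.076 and 0.038. Whether these are mixed droplets was not tested. Counted by cells, 23.8% in the knockout against 4.18% in the wild type held a UMI, and 6.01% (4.45 to 7.91) against 1.59% (1.13 to 2.17) at 2000 UMIs. The basal shares on that depth, 2.27% and 0.871%, had the same order.

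The summed Wfdc12 ratio in luminal cells varied in sign over their subsets, while the unthinned share of cells with a UMI was higher in the knockout in each of them. The ratio was 2.92 (2.34 to 3.56) in cycling cluster 8, on 322 and 26 UMIs, 0.81 (0.58 to 1.04) in cluster 5, on 813 and 200 UMIs, and -0.22 (-1.45 to 0.78) in cluster 4, on 8 and 245 UMIs. By milk protein share it was 3.54 below 5%, on 1025 and 7 UMIs, but -2.45 from 5 to 15%, on 87 and 95 UMIs, and -1.01 from 15 to 35%. Single wild type cells held up to 72 UMIs in cluster 4 and 68 in cluster 5. The share of cells with a UMI was 25.8% against 6.86% below 5% milk protein, 22.1% against 7.01% from 5 to 15%, 20.2% against 5.01% from 15 to 35% and 17.6% against 3.16% above. In cluster 4 it was 13.8% against 3.197%, and 2.22% (0.0562 to 11.8) against 1.205% (0.747 to 1.84) at 2000 UMIs, which overlap. At 2000 UMIs the share in cluster 5 was 6.50% (4.46 to 9.10) against 3.85% (2.06 to 6.49), which overlap too. In cluster 8 it was 5.77% (3.26 to 9.34) against 1.34% (0.435 to 3.09), which do not. The shares by milk protein were not thinned, and unthinned shares also move with depth. In basal cells Wfdc12 was at 12.4 CPM in the knockout against 5.94 in the wild type, a log2 ratio of 1.07 (0.72 to 1.44). Across the unlike basal clusters of the libraries the ratio was above 0 in 9 of 9, with an interval above 0 in 3. The basal class level is 0.0442% of the hormone-sensing level in the knockout against 0.0407% in the wild type, so the basal and hormone-sensing levels kept nearly the same proportion in both libraries.

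Slpi, the elastase inhibitor, was highest in hormone-sensing cells and next in cluster 9. Hormone-sensing cells had 1488 UMIs or 1317 CPM (1251 to 1386) in the knockout against 374 UMIs or 597 CPM (538 to 661) in the wild type, a log2 ratio of 1.14 (0.97 to 1.30). Unlike Wfdc12 it was uneven: 64.1% of knockout and 42.4% of wild type cells held a UMI, and 46.9% (38.5 to 55.4) and 34.4% (26.1 to 43.6) at 2000 UMIs, so that the thinned intervals overlapped. Basal cells held it in 3.05% and 2.27% at that depth. There were 35 knockout cells with at least 10 Slpi UMIs, 24.1% of the class, and 8 wild type cells, 6.4%. These cells held 85.7% and 69.8% of the Slpi UMIs, and their hormone-sensing marker sum was 9523 and 7589 CPM, close to or above the 9588 and 5508 of the whole class. Without the 5 cells of each library with the most Slpi UMIs the ratio was 1.84, and with cells of a doublet score above 0.1 left out it was 1.16.

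Slpi was also among the 10 genes that led cluster 9, though it was left out of clustering. It was at 498 CPM (460 to 539) in 312 knockout cells and 307 CPM (251 to 372) in 143 wild type cells, a log2 ratio of 0.69 (0.39 to 1.00). A UMI was found in 38.8% and 30.8% of these cells, and in 30.5% and 20.6% at 2000 UMIs, where only 68 wild type cells were deep enough. Cluster 9 had basal keratins, with Krt5 at 1009 and 1190 CPM and Krt14 at 2808 and 2601, and little hormone receptor, with Pgr at 16.0 and 26.6 CPM and Esr1 at 0 in both libraries. Slpi in basal cells proper was at 22.9 CPM in the knockout against 19.7 in the wild type, with a ratio of 0.23 (0.02 to 0.44).

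In luminal secretory cells Slpi was low, and its summed level was lower in the knockout. It had 218 UMIs or 16.5 CPM in the knockout against 580 UMIs or 19.9 CPM in the wild type, a log2 ratio of -1.12 (-1.35 to -0.90), or -0.27 (-0.50 to -0.04) on the plain scale. At a like milk protein share the ratio was -1.56 (-2.23 to -0.84) below 5% and -1.29 (-1.87 to -0.68) from 5 to 15%, and -0.36 (-0.88 to 0.12) from 15 to 35%. These levels are near the basal ones, and the thinned shares of 2.43% and 3.63% of cells lay near the basal 3.05% and 2.27%. The intervals of the thinned luminal shares, 1.47 to 3.77 and 2.92 to 4.44, overlapped. Unthinned, the share was higher in the knockout, 16.4% against 13.2%.

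Wfdc2 shared the top classes of Slpi, hormone-sensing cells and then cluster 9, at lower levels. Hormone-sensing cells had 177 UMIs or 157 CPM (134 to 181) in the knockout against 63 UMIs or 101 CPM (77.3 to 129) in the wild type, a log2 ratio of 0.63 (0.21 to 1.07). A UMI was found in 59.3% and 34.4% of the cells, and at 2000 UMIs in 29.4% (22.1 to 37.6) and 22.1% (15.1 to 30.5), which overlap. Cluster 9 had 42 UMIs or 33.6 CPM in the knockout against 5 UMIs or 14.8 CPM in the wild type, and the ratio of 1.18 (-0.16 to 2.87) was within counting error of 0. In luminal secretory and basal cells the levels lay between 2.64 and 3.75 CPM, with ratios of -0.52 (-1.09 to 0.03) and 0.10 (-0.41 to 0.63). At 2000 UMIs 0.512% and 0.448% of luminal secretory cells held a UMI, near the basal 0.678% and 0.716%, with overlapping intervals. Some wild type luminal cells lay above the basal level. Below 5% milk protein Wfdc2 was at 52.0 CPM (33.6 to 76.7), on 25 UMIs in 12.7% of 102 cells. In wild type cluster 5 it was at 11.02 CPM (7.49 to 15.6), on 31 UMIs. The same 1 cell gave 10 UMIs to both sums. The knockout levels in that bin and that cluster were 6.07 CPM (4.23 to 8.44) and 3.60 CPM (2.23 to 5.51). Non-epithelial cells held 0 UMIs in both libraries, which allows up to 6.28 CPM in the knockout against 3.33 in the wild type.

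Read together with all genes of the same class, the 4 genes were called at a 1.5-fold difference as follows. In luminal secretory cells Wfdc12 was higher in the knockout, as were 15.3% of 11370 genes, and Wfdc18 and Slpi were lower, as were 18.2% (33.4% for either direction). On the plain scale 67.4% of these genes were called higher and 4.64% lower, and of the 4 members Wfdc12 alone was called, as higher. In hormone-sensing cells Wfdc12, Wfdc2 and Slpi were higher, against 9.42% of 4288 genes, and Wfdc18 was lower, against 8.33%. In basal cells Wfdc12 was higher, against 6.31% of 12436 genes, and Wfdc18 lower, against 6.68%, while Wfdc2 and Slpi stayed within 1.5-fold. In cluster 9 Slpi was higher, against 9.34% of 3971 genes, and Wfdc18 lower, against 6.75%. Wfdc2 was also higher there by size alone, on 42 knockout and 5 wild type UMIs. These were too few for Wfdc2 to be among the 3971 genes, and its ratio was within counting error of 0.

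**Figure D4:**
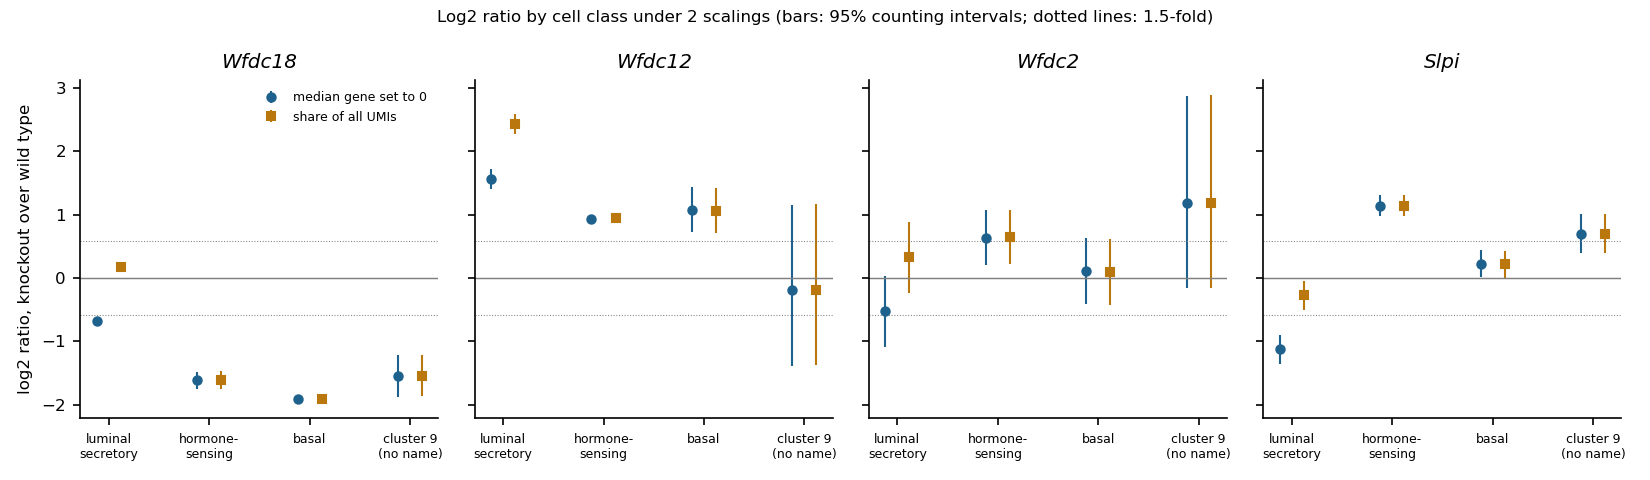
Log2 ratio of knockout over wild type (vertical axis) in 4 cell classes for each gene, with the median gene set to 0 (blue circles) or as a plain share of UMIs (orange squares), 95% counting intervals, and dotted lines at 1.5-fold. The scalings part in luminal secretory cells, where Wfdc18 lies at -0.68 or 0.18, and nearly coincide in the other classes.

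Few hormone-sensing cells lacked Wfdc12, so it was found beside the other members. At 2000 UMIs per cell, 46.9% of knockout and 33.6% of wild type hormone-sensing cells held both Wfdc12 and Slpi. Slpi was found in 50% of the 42 knockout cells with Wfdc2 and in 45.5% of those without it. In the wild type it was found in 48.1% of 27 cells with Wfdc2 and in 30.5% of those without. Slpi and Wfdc2 together were found in 14.7% and 10.7% of the cells, against 13.8% and 7.62% as the product of their single shares. In luminal secretory cells most cells held a single member, 91.4% in the knockout against 94.3% in the wild type, and that was Wfdc18 in nearly all of them.

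The genes with the most similar pattern were searched by the correlation of log2(CPM + 5) over 31 combinations of cluster and library, among 8588 genes; the 31 points share 2 libraries, and no test was made. For Wfdc18 they were Elf5, an ETS factor of alveolar cells (Pearson r = 0.96), Plin2, a coat protein of lipid droplets (0.96), and Olah, a thioesterase of milk fatty acid synthesis (0.96). Its correlation with Wap was 0.76. For Wfdc12 they were Calca, which encodes calcitonin (0.97), Areg, the growth factor amphiregulin (0.96), and Fam3c, a secreted protein (0.94). Calca and Areg were among the markers used to name the hormone-sensing cluster, as Elf5 and Olah were for luminal secretory clusters. The hormone-sensing cluster gives only a point per library, and Wfdc12 was far lower at every other point. Calca stood at 4380 CPM in knockout and 1308 in wild type hormone-sensing cells, and Areg at 1031 and 331. For Wfdc2 they were Slpi (0.88), Fxyd4, a regulator of the sodium pump (0.86), and Tmprss6, a membrane serine protease (0.85), and for Slpi they were Wfdc2 (0.88), Mapk13, a p38 kinase (0.82), and Krtcap3 (0.80). The correlation of Wfdc18 with the other 3 members was low, from -0.11 to 0.17. By rank correlation, Plin2 for Wfdc18 and Krtcap3 for Slpi stayed among the top 3, and for Wfdc12 and Wfdc2 none did.

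Of 23 WFDC genes looked for, Wap included, all were in the tables, 8 had at least 50 UMIs in a class, 6 had 1 to 9 UMIs in all kept cells and 6 had none. Wfdc3 and Wfdc17 were further family members measured in luminal secretory cells. Wfdc3 was at 55.0 CPM in knockout and 100 in wild type luminal secretory cells, on 726 and 2927 UMIs, a log2 ratio of -1.72 (-1.84 to -1.61). Its level was not lower in the knockout in every cluster. In cluster 4 it was at 227 CPM in 58 knockout cells, 6 of which held 61.4% of the UMIs, against 111 in 1814 wild type cells. It was at 54.2 and 59.4 CPM in cluster 5 and at 41.0 and 85.2 CPM in cluster 8. Wfdc17, next to Wfdc18 on chromosome 11, was at 25.7 and 63.8 CPM, a ratio of -2.17 (-2.34 to -2.00). Over the whole class Wfdc3 and Wfdc17 were lower on the plain scale too, at -0.87 and -1.31. The neighbours thus stood at different ratios, -2.17 and -0.68 in the same cells. Wfikkn2 reached 61 UMIs in basal cells, 34 and 27, a ratio of -0.32 (-1.09 to 0.47).

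Other protease inhibitors, the proteases they can face and other defence proteins of milk were counted over lists of known genes. Of 13 measured protease inhibitors outside the family in luminal secretory cells, 2 were at least 1.5-fold higher in the knockout and 3 lower, against 15.3% and 18.2% of all genes, with a median log2 ratio of -0.16 where the median of all genes is set to 0. Cst3, the secreted cysteine protease inhibitor cystatin C, was at 34.6 CPM in the knockout against 86.6 in the wild type (-2.18), and Serpinh1, a collagen chaperone, at 32.1 and 9.29 (0.93). Of 14 serine proteases 2 were higher and 4 lower, with a median of -0.19; Tmprss4, a membrane serine protease, was at 3.64 and 13.7 CPM (-2.77) and Prss22, another serine protease, at 9.93 and 2.50 (1.13). Of 15 secreted mucosal defence genes 0 were higher and 14 lower, with a median of -1.84. Among them Ltf, the iron-binding milk protein lactoferrin, was at 36.1 and 139 CPM (-2.80) and Pigr, which carries antibodies into milk, at 49.3 and 174 CPM (-2.67). All 11 milk protein genes, Wap among them, were lower, with a median of -3.37. The 7 measured WFDC genes had a median of -1.12, with 1 higher and 5 lower. On the plain scale the counts of higher and lower genes were 7 and 1 for the inhibitors, 9 and 1 for the proteases, 0 and 9 for the defence genes, 0 and 11 for milk proteins and 1 and 3 for the WFDC genes. Since 67.4% of all genes were higher and 4.64% lower on that scale, the counts of inhibitors and proteases there lie near the background and say nothing particular of these lists.

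In hormone-sensing cells few genes of these lists reached 50 UMIs. The genes named here were chosen after their values were seen. Against 9.42% of all genes higher and 8.33% lower, of 8 protease inhibitors 0 were higher and 1 lower, and of 4 serine proteases 0 were higher and 1 lower. That protease was Prss23, at 160 CPM in the knockout against 706 in the wild type (-2.14, -2.40 to -1.89). Of 4 defence genes, Defb1, a beta-defensin, was higher, at 543 CPM in the knockout against 52.7 in the wild type (3.36, 2.85 to 3.91), and 2 were lower, among them Lcn2, an iron-scavenging lipocalin, at 73.5 and 200 CPM (-1.45). The 5 measured WFDC genes had a median log2 ratio of 0.63, with 3 higher and 2 lower.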

How the data were processed

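The data are 10x Genomics 3' (v3) UMI counts of 1 Ehf knockout and 1 wild type library. The authors deposited raw UMI counts as whole numbers for each gene in each barcode. GRCm38 (mm10) and Seurat 4.0.4 are given per the submitters' processing notes, while the aligner, its settings and the use of strand could not be found. The deposited tables held 7275 and 11258 barcodes, 40066795 and 48720938 UMIs, and medians of 3707 and 2163.5 UMIs per barcode. Features without a gene symbol (1314 of 27179) took 1.74% and 1.36% of the UMIs.

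Cells needed at least 500 genes, 1000 UMIs and at most 20% mitochondrial UMIs, which left 6561 and 9211. Scrublet, as run in scanpy 1.11.5, called 0 of 6561 knockout cells at its own threshold, so the wild type threshold of 0.379 was applied to both libraries and removed 38 (0.579%) and 122 (1.32%) cells. Cells of both libraries were clustered jointly on 2000 variable genes, 30 components and 20 neighbours (Leiden, leidenalg 0.10.2, resolution 1). WFDC, milk protein, milk lipid (Plin2 and Olah among them), mitochondrial and ribosomal genes were left out. This was done after each cell was scaled to its total UMIs over all genes. Clusters took a name from lists of lineage markers, none of which holds one of the 4 genes (the alveolar list holds Wap). UMIs were summed per class and library. Ratios were scaled to the median gene with at least 50 UMIs in the same class, cluster or bin. Zero counts were read as at most 3 counts, and a 1.5-fold difference was called by size alone. Shares of cells were compared after thinning each cell to 2000 UMIs. Intervals are exact (Poisson, conditional binomial or Clopper-Pearson) at 95%. Only those of the ratios were tried on simulated counts. These were Poisson counts, the error that the intervals assume, so the trial says nothing of UMIs clumped in few cells. Droplet free RNA was not removed. Scripts used Python 3.11.15, numpy 2.4.6, scipy 1.17.1 and pandas 2.3.3.

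The genes and lists were chosen with earlier results of these data known. Beside the 4 genes, the text names WFDC genes with at least 50 UMIs in a class, the 3 genes most like each member, annotated neighbours, and from each list up to 4 genes of at least 200 UMIs with the largest ratio in luminal secretory cells. Exceptions are stated. Positions are from GENCODE vM21 and upstream sequences from RefSeq, both on GRCm38.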

Additional observations from a re-analysis of the deposited data

Results flagged for a closer look

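The knockout to wild type ratio of Slpi differed between lineages. On the log2 scale it was 1.14 in hormone-sensing cells and 0.23 in basal cells, and -1.12 in luminal secretory cells. The basal value (0.02 to 0.44) was within 1.5-fold, and the luminal secretory value was -0.27 as a plain share of UMIs, also within 1.5-fold. With 1 library per genotype this difference between lineages was not tested. The luminal secretory level was near the basal level in both libraries.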

How the results depend on the processing

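No paired analysis was possible because each genotype has 1 library. Leaving out the cells with the most UMIs, cluster 4, or cells of a high doublet score was chosen after seeing the data. Values within a cluster are scaled to its own median gene, so their zero differs from that of the class. For Wfdc18 in luminal secretory cells (-0.68 on the log2 scale) the direction reversed as a plain share of all UMIs (0.18), within cluster 4 (0.59) and within cluster 5 (0.061). It was -0.47 within cluster 8, -0.24 without cluster 4, -0.37 over UMIs outside milk and WFDC genes, -0.69 with the median over genes with at least 10 UMIs, -0.65 with no cell filter, -0.67 with doublet calls kept in, -0.63 after thinning, -0.72 with the basal level subtracted and -0.72 without the 5 top cells of each library. For Wfdc12 in luminal secretory cells (1.57) it reversed within cluster 4 (-0.22), and was 0.81 within cluster 5, 2.92 within cluster 8, 2.42 as a plain share, 1.87 outside milk and WFDC genes, 2.17 with doublet calls kept in, 1.15 with equal weight per cell, 1.197 after thinning and 1.92 with the basal level subtracted. For Wfdc12 in hormone-sensing cells (0.93) the other values were 0.98 with genes of at least 10 UMIs, 0.89 with a stricter cell filter, 1.23 with doublet calls kept in, 0.82 with equal weight, 0.75 after thinning, 0.98 with the basal level subtracted, 1.01 without the top cells and 0.83 at a doublet score of at most 0.1. For Slpi there (1.14) they were 0.76 with the stricter filter, 1.37 with doublets in, 1.38 with equal weight and 1.84 without the top cells. The cause of these shifts was not tested. Wfdc2 in hormone-sensing cells ranged from 0.37 to 0.93 over 13 alternatives, and Slpi in luminal secretory cells from -1.63 to -0.21 over 15. Depth limits Wfdc2 outside hormone-sensing cells, where a class held at most 86 UMIs per library.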

Other observations

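Among 10 basal clusters, Slpi in cluster 7 was at 36.4 CPM in knockout cells, on 171 UMIs, and at 11.8 CPM in wild type cells, on 5 UMIs, a log2 ratio of 1.64 (0.39 to 3.28). Of 8 basal clusters with a Slpi ratio, 6 lay above 0 and 2 below. Cluster 7 was the only 1 with an interval above 0, and 59 knockout cells held 84.8% of its knockout UMIs. Wfdc17 in non-epithelial cells was at 73.3 CPM on 35 UMIs and 25.5 CPM on 23 UMIs, a log2 ratio of 1.46 (0.66 to 2.29), while in luminal secretory cells it was lower in the knockout (-2.17).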
